A study of Mus musculus with 9 samples.

Results

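The genes of de novo fatty acid synthesis, the cytosolic pathway that turns sugar carbon into fatty acids, were followed in mouse subcutaneous fat. They were chosen by name as known lipogenic enzymes and regulators, before any filter on level. The set holds 10 genes, namely Slc25a1, Acly, Acss2, Me1, Acaca, Acacb, Fasn, Thrsp, Srebf1 and Mlxipl, of 35071 annotated genes to which transcripts were assigned. All 10 passed the filter on low counts, which left 17968 genes for testing.

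The study asked which molecular changes accompany a metabolic phenotype in mice that lack AGO1, an Argonaute protein of small-RNA silencing, in endothelial cells. The mice were C57BL/6 and 24 weeks old, and RNA of their whole subcutaneous adipose tissue was sequenced. There were 9 libraries, 3 in each of 3 groups, which the labels call WT, Hete KO and Homo KO. The series title calls the WT animals littermates. Hete KO and Homo KO are read here as the heterozygous and homozygous endothelial knockout only as far as those words go, since no source used here gives the Cre driver, the allele, the sex or the litters. The labels do not say whether the libraries of a group came from separate animals, so p-values measure the spread between these libraries.

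Lipogenesis starts from citrate, which a carrier moves out of the mitochondrion and which is then split into acetyl-CoA. Acetyl-CoA is carboxylated to malonyl-CoA, and fatty acid synthase joins these units with electrons from NADPH. In fat the pathway runs in adipocytes and is driven by insulin and glucose through the transcription factors SREBP-1c and ChREBP.

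In Hete KO, Acaca, the carboxylase of the committed step, stood 2.20-fold above WT and Thrsp, a lipogenic regulator, 2.17-fold, with all 3 libraries above all WT libraries for both. In Homo KO the same genes stood 1.54-fold and 1.64-fold above WT, with 1 library among the WT values. Slc25a1, the citrate carrier, was at 0.668 and 0.713 of WT in the 2 knockout groups. Fasn, Acly, Acss2, Me1 and Srebf1 overlapped WT in both groups. None of these differences passed the test across all genes.

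Depth was between 20843427 and 28252001 estimated counts per library. All 10 adipocyte markers (among them Adipoq, Plin1 and Pparg) had counts in all libraries, and their summed level was 11330 to 15710 TPM. Ago1 itself was at 63.4 to 69.9 normalized CPM in WT, 51.2 to 60.1 in Hete KO, and in Homo KO 1, 2 and 3 at 62.2, 58.6 and 25.8, and its difference from WT did not pass the test (Homo KO log2 fold change -0.43, edgeR adjusted p = 0.441). Other cells of fat express Ago1 too, so its level in the whole tissue is a weak check of the labels. Skeletal muscle markers took 1.004, 0.9542 and 2.567% of the counts in WT 1, WT 2 and Hete KO 2, and 0.00934 to 0.1246% elsewhere. Liver markers took 0.114 and 0.099% in WT 2 and WT 3 and at most 0.00693% elsewhere. The summed macrophage markers were at 495.2 to 827.9 TPM in WT, 234.1 to 397.9 in Hete KO and 310.4 to 589.4 in Homo KO. The summed sebaceous and skin markers, 4 of 7 of which stayed under 1 TPM, were at 22.1 to 24.9 TPM in WT, 9.78 to 16.4 in Hete KO and 10.2 to 12.6 in Homo KO, lower in all 6 knockout libraries. Brown adipocyte markers were highest in WT 2 at 238.5 TPM and Hete KO 2 at 107.6, and at 21.7 to 37.1 elsewhere. The part of these other cell types in the results below was not tested, apart from the values given without those libraries.

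The 10 genes lie on 6 chromosomes of GRCm38 (mm10). Fasn, Acly, Acaca and Srebf1 are on chromosome 11, at 120805846 to 120824547 (minus strand), 100476353 to 100528000 (minus), 84129672 to 84401651 (plus) and 60199089 to 60222581 (minus). Acacb and Mlxipl are on chromosome 5, at 114146535 to 114250761 and 135089890 to 135138382, both on the plus strand. Me1 is on chromosome 9 at 86581371 to 86695953 (minus), Slc25a1 on chromosome 16 at 17925223 to 17928219 (minus), Thrsp on chromosome 7 at 97412938 to 97417730 (minus) and Acss2 on chromosome 2 at 155517948 to 155585724 (plus).

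The promoters of 3 of these genes are shown because 2 of them, Fasn and Acly, had the highest correlation of any pair across the libraries. Slc25a1 lay apart from them only on that scale, with Pearson's r of 0.21 to Fasn and 0.29 to Acly. After group means were taken away, these values were 0.80 and 0.81. Each run is the 250 bases that end just before the RefSeq start site, upstream of the first exon, on the minus strand and read 5′ to 3′. All 3 are on GRCm38.p6, at chr11:120824548-120824797 for Fasn, chr11:100528001-100528250 for Acly and chr16:17928220-17928469 for Slc25a1. Capitals mark matches to the motifs named in the next paragraph.
Fasn: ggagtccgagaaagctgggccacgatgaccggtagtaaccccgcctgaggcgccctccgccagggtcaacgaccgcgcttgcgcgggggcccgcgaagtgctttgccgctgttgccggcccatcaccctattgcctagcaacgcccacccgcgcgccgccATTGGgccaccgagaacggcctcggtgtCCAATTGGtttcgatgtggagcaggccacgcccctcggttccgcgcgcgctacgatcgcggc
Acly: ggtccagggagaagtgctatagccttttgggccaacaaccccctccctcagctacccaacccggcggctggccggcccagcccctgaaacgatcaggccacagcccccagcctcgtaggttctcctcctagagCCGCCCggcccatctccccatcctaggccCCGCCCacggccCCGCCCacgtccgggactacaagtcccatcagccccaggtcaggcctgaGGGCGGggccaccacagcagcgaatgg
Slc25a1: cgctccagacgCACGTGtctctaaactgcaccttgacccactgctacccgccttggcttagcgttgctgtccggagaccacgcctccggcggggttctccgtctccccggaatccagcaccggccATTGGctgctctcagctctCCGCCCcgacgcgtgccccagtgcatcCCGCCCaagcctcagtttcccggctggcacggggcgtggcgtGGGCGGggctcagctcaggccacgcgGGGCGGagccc

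RefSeq held start sites for all 10 genes, 14 in all. In the 250 bases before each start, 6 motifs were searched on both strands: CCAAT (the CCAAT box), GGGCGG (the GC box), CACGTG (an E-box), TCACNCCAC (a sterol-response-like element), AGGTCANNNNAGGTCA (a spaced repeat) and TATAAA. The Fasn promoter held 3 CCAAT matches, of which the 2 nearest the start, on opposite strands at bases 62 to 58 and 59 to 55 before it, overlap each other. Acly held 4 GC boxes and no CCAAT match. Slc25a1 held 4 GC boxes, 1 CCAAT match and 1 E-box, at bases 239 to 234 before the start.

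Over the set, CCAAT was found in 9 of the 14 promoters (8 genes) against 33.8% of 32851 promoters of the same length, and the GC box in 7 (6 genes) against 32.7%. The E-box was found before Slc25a1 and Mlxipl, against 6.02% of all promoters. The sterol-response-like element was found before 1 Mlxipl start only, at 1.05% of all promoters, the TATA box before 1 Acacb start, at 12.4%, and the spaced repeat before none, at 0.0152%. The G and C content of the 3 printed windows was 69.2, 68.8 and 70.0%, against a median of 52.4% over all promoters. Over the 14 windows of the set it ran from 39.2% before Acaca to 72.0% before 1 Me1 start. A match is a description of letters, and no binding was measured.

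Levels of different genes can be compared only per length, so they are given first as TPM summed over protein-coding transcripts, a sum chosen after short non-coding transcripts had been seen to be high in single libraries. In WT, Fasn stood highest at 494.8 ± 103.1 TPM (SD, n = 3). Next came Me1 at 285.7 ± 46.0 and Thrsp at 221.4 ± 45.3, whose ranges of 233.5 to 320.3 and 183.4 to 271.6 overlap, and Slc25a1 at 148.4 ± 13.98. Acaca at 90.4 ± 11.1 and Acly at 89.4 ± 18.8 did not separate. Srebf1 at 47.9 ± 6.18 and Acss2 at 43.4 ± 7.67 overlapped as well, and so did Mlxipl at 26.0 ± 7.34 and Acacb at 23.0 ± 9.15. Over all transcripts the WT order differed: Slc25a1 was at 307.0 ± 47.1 TPM beside Me1 at 291.3 ± 40.1, and Srebf1 was at 217.5 ± 61.9, above Acly at 124.9 ± 37.0 and Acaca at 97.6 ± 10.3. In Hete KO the order near the top was different: Fasn stood at 679.1 ± 124.3 TPM, Thrsp at 485.2 ± 42.7 above Me1 at 261.9 ± 48.6, and Acaca at 199.2 ± 21.7 above Slc25a1 at 119.8 ± 33.8.

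For comparisons of 1 gene between groups, estimated counts of all its transcripts were summed and scaled to CPM (counts relative to the library total) with edgeR's TMM factors, which gives normalized CPM. In bulk tissue, fewer cells of a type and less RNA per cell cannot be told apart. The plot of levels by library shows all 90 values.

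**Figure D1:**
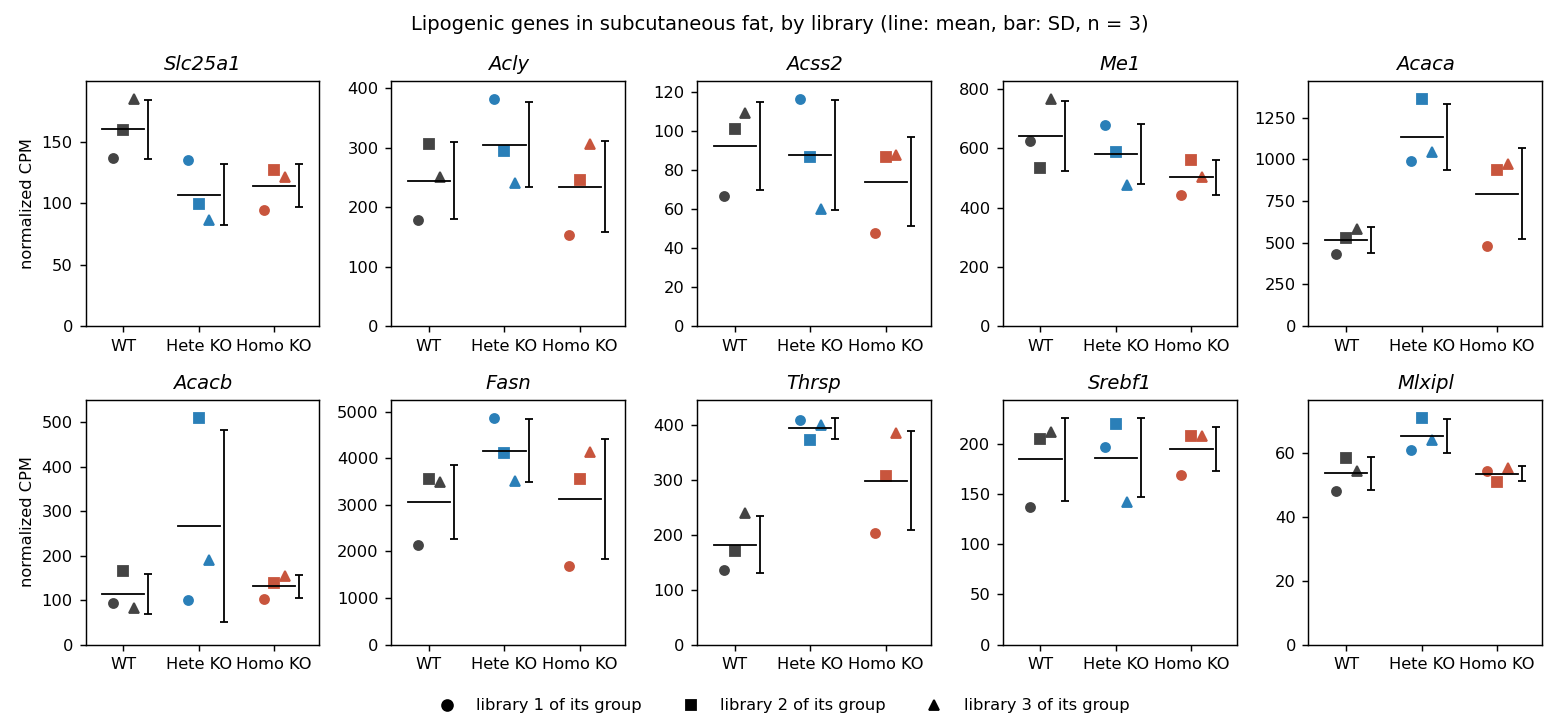
Normalized CPM of the 10 lipogenic genes (vertical axes, linear from 0) in WT, Hete KO and Homo KO (horizontal axes); symbols are libraries, lines are means and bars are SDs of 3 libraries. Thrsp and Acaca stand higher in all 3 Hete KO libraries than in WT, while Slc25a1 is below WT in all 6 knockout libraries, by a narrow margin in Hete KO 1.

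The genes that supply carbon were led by Slc25a1, the mitochondrial citrate carrier, which was the 1 gene of the set whose knockout libraries all lay below all WT libraries in normalized CPM. It was at 136.8, 159.8 and 185.0 normalized CPM in WT 1, 2 and 3, at 135.2, 99.9 and 86.4 in Hete KO, and at 94.3, 127.4 and 121.9 in Homo KO. Hete KO 1 lay just under WT 1, and the other 5 knockout libraries lay further below. On the log2 scale Hete KO differed from WT by -0.58 (SE 0.19, edgeR adjusted p = 0.123) and Homo KO by -0.49 (SE 0.19, edgeR adjusted p = 0.254). With both knockout groups set against WT it was -0.53 (SE 0.16, edgeR adjusted p = 0.0944). None of these passed the threshold of 0.05. On coding TPM, Hete KO 1 at 157.4 lay within the WT range of 133.0 to 160.4, and the other knockout libraries stayed below it. On TPM over all transcripts both groups overlapped the WT range of 256.8 to 350.1, with Hete KO 1 at 271.3 and Homo KO 2 at 297.7. The sebaceous and skin markers, like the CPM of Slc25a1, were below WT in all 6 knockout libraries, and their part in it was not tested.

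Acly, the ATP-citrate lyase that cleaves exported citrate, showed no such separation. It was at 177.4, 305.6 and 250.0 normalized CPM in WT, at 381.3, 293.7 and 239.6 in Hete KO, and at 152.9, 245.3 and 305.3 in Homo KO. The groups overlapped over most of their range, with log2 fold changes of 0.32 (SE 0.28, edgeR adjusted p = 0.546) in Hete KO and -0.06 (SE 0.28, adjusted p = 0.938) in Homo KO. Acss2, which makes acetyl-CoA from acetate, was at 66.5, 101.0 and 109.0 in WT, at 116.1, 86.4 and 59.9 in Hete KO, and at 47.5, 86.5 and 87.3 in Homo KO. It overlapped likewise, with log2 fold changes of -0.07 (edgeR adjusted p = 0.914) and -0.32 (adjusted p = 0.609). Exons of Acss2 share 395 bases with Gss, 197 with Ggt7 and 335 with the antisense gene Acss2os, and no source used here says whether the counting used strand.

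Me1, the cytosolic malic enzyme that yields NADPH, was at 626.3, 532.2 and 766.1 normalized CPM in WT. It was at 679.8, 588.1 and 477.6 in Hete KO and at 442.9, 562.2 and 501.6 in Homo KO. Of the Homo KO libraries 2 lay below all of WT and the third lay inside the WT range. Against WT the log2 difference came to -0.14 (SE 0.18, edgeR adjusted p = 0.691) for Hete KO and -0.35 (SE 0.18, adjusted p = 0.349) for Homo KO.

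Among the core enzymes, Acaca, the cytosolic acetyl-CoA carboxylase of the committed step, stood higher in Hete KO than in WT. It was at 431.0, 529.8 and 583.0 normalized CPM in WT, at 992.1, 1361 and 1047 in Hete KO, and at 480.0, 934.1 and 969.1 in Homo KO. All Hete KO libraries lay above all other libraries, while Homo KO 1 lay with WT and Homo KO 2 and 3 lay between. The group means were 514.6 ± 77.1, 1134 ± 199.2 and 794.4 ± 272.8 (SD, n = 3 each). Hete KO differed from WT by 1.14 on the log2 scale (SE 0.26, edgeR adjusted p = 0.0666), a 2.20-fold difference that missed the threshold, and the value was 0.63 (SE 0.25, adjusted p = 0.27) in Homo KO.

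Acacb, the acetyl-CoA carboxylase at the mitochondrial surface, which is known as the form prevailing in muscle, had its largest value in 1 library. It was at 92.9, 166.3 and 82.7 normalized CPM in WT, at 99.2, 509.8 and 189.1 in Hete KO, and at 103.0, 137.6 and 153.2 in Homo KO. Hete KO 2, the library with 2.567% skeletal muscle markers, stood far above the rest, and Hete KO 1 lay inside the WT range. The log2 fold change of 1.22 (SE 0.51, edgeR adjusted p = 0.199) in Hete KO was 0.33 without Hete KO 2 (edgeR adjusted p = 0.667). In Homo KO it was 0.20 (SE 0.50, adjusted p = 0.872).

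Fasn, the fatty acid synthase itself, varied as much within groups as between them. It was at 2136, 3557 and 3489 normalized CPM in WT, at 4872, 4107 and 3522 in Hete KO, and at 1681, 3560 and 4144 in Homo KO. The lowest library, Homo KO 1, shares its group with Homo KO 3, one of the highest. Its log2 difference from WT was 0.45 (SE 0.32, edgeR adjusted p = 0.451) for Hete KO and 0.03 (SE 0.32, adjusted p = 0.973) for Homo KO.

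Of the regulators, Thrsp (Spot 14), a lipogenic protein that responds to thyroid hormone and carbohydrate, differed as widely as Acaca. It was at 136.6, 170.6 and 239.1 normalized CPM in WT, at 409.5, 373.0 and 401.3 in Hete KO, and at 204.1, 307.1 and 384.9 in Homo KO. The Hete KO libraries lay close together and above all WT libraries, and Homo KO 1 lay inside the WT range. The means were 182.1 ± 52.2, 394.6 ± 19.2 and 298.7 ± 90.7 (SD, n = 3 each). Hete KO differed from WT by 1.12 on the log2 scale (SE 0.25, edgeR adjusted p = 0.0654), with 0.71 (SE 0.24, adjusted p = 0.225) in Homo KO, and 0.91 (SE 0.22, adjusted p = 0.0595) with both groups against WT.

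Srebf1, which encodes SREBP-1, was level across the groups. It was at 136.8, 205.2 and 211.9 normalized CPM in WT, at 197.4, 219.6 and 142.3 in Hete KO, and at 169.5, 207.9 and 207.8 in Homo KO. Its log2 fold changes were 0.01 (SE 0.20, edgeR adjusted p = 0.977) in Hete KO and 0.08 (SE 0.20, adjusted p = 0.877) in Homo KO. Exons of Srebf1 share 109 bases with Rai1 on the other strand.

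Mlxipl, which encodes the glucose-responsive factor ChREBP, spanned the smallest range of the set, 1.48-fold from lowest to highest library. It was at 48.0, 58.3 and 54.4 normalized CPM in WT, at 60.7, 70.9 and 63.8 in Hete KO, and at 54.4, 50.7 and 55.2 in Homo KO. All Hete KO libraries lay above all others, by a small margin over WT 2. Its log2 difference from WT was 0.28 (SE 0.11, edgeR adjusted p = 0.163) for Hete KO and -0.00 (SE 0.11, adjusted p = 0.992) for Homo KO. In Homo KO against Hete KO it was -0.29 (SE 0.11, adjusted p = 0.899). Exons of Mlxipl share 235 bases with Gm43500 on the other strand.

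In the main edgeR fit, over all 9 libraries with the filter and no replicate block, no gene of the set passed an adjusted p of 0.05 in any comparison. The comparisons with WT share the same WT libraries and those with Hete KO the same Hete KO libraries. In Hete KO against WT, 0.417% of all tested genes passed, and 5 of the 10 genes had an unadjusted p under 0.05, against 21.9% of all tested genes. DESeq2 called 3 of the 10 there, Acaca, Thrsp and Slc25a1, among 1674 genes over the whole table, and limma on log2(TPM + 0.5) called 0. Acaca, Thrsp and Mlxipl did not overlap WT from above, as did 12.6% of all tested genes, and Slc25a1 did not from below, as did 12.1%. The median log2 fold change was 0.30 over the 10 genes, 7 of them positive, and 0.02 over all tested genes.

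In Homo KO against WT the adjusted threshold was passed by 0.0% of genes, and 3 of the 10 genes, Thrsp, Slc25a1 and Acaca, had an unadjusted p under 0.05, against 16.4% of all. DESeq2 and limma called 0 of the 10. Only Slc25a1 did not overlap WT, from below, as did 11.2% of all tested genes, and no gene of the set was above WT in all libraries, as 10.9% were. The median log2 fold change was 0.01 over the set, with 5 genes positive and 5 negative, against -0.01 over all tested genes.

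Against each other, the knockout groups had 0.0% of all genes past the adjusted threshold, and 1 of the 10 genes, Mlxipl, had an unadjusted p under 0.05, against 5.44% of all. DESeq2 and limma called 0 of the 10. Acaca and Mlxipl were lower in all Homo KO than in all Hete KO libraries, as were 5.64% of all tested genes. None was higher in all Homo KO libraries, as were 5.73% of tested genes. The median over the set was -0.33, with 8 of 10 genes negative, and that over all tested genes was 0.00. Setting both knockout groups against WT, 2.34% of all tested genes passed, and 3 of the 10, Thrsp, Acaca and Slc25a1, had an unadjusted p under 0.05, against 22.6% of all. DESeq2 called those 3 and limma 0. Slc25a1 was the 1 gene that did not overlap WT, from below, as did 6.06% of all tested genes.

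**Figure D2:**
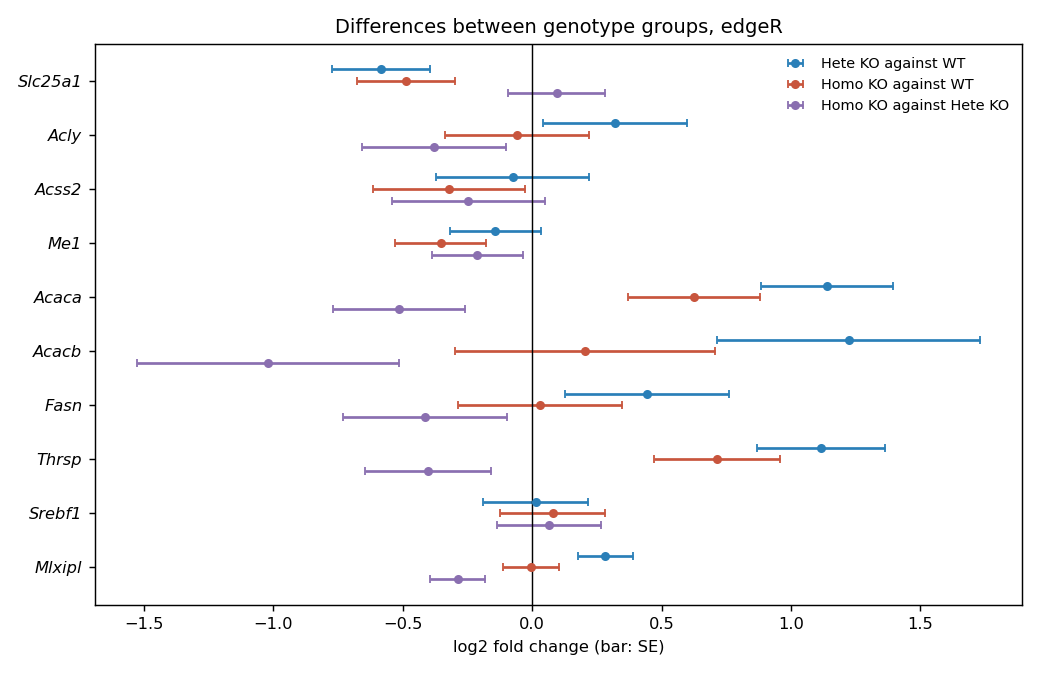
Log2 fold change (horizontal axis) of each lipogenic gene (vertical axis) in 3 comparisons, with bars of 1 SE from edgeR. Hete KO against WT runs from -0.58 for Slc25a1 to 1.22 for Acacb, whose bar is the widest, and for Acaca and Thrsp the Homo KO difference from WT is the smaller one.

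Calls for Acaca and Slc25a1 depended on single libraries. In Hete KO against WT, leaving out Hete KO 1 brought Acaca (log2 fold change 1.25, edgeR adjusted p = 0.0443) and Slc25a1 (-0.76, adjusted p = 0.0466) past the threshold. Without Hete KO 2 the values were 0.98 (adjusted p = 0.182) for Acaca and -0.54 (adjusted p = 0.271) for Slc25a1. In the joint comparison of both knockout groups, Acaca passed without Homo KO 1 (1.03, adjusted p = 0.0491) and Slc25a1 without Hete KO 1 (-0.62, adjusted p = 0.0395). Without the libraries over 1% skeletal muscle markers, WT 1 and Hete KO 2, the Hete KO differences were 0.86 for Acaca (edgeR adjusted p = 0.18), 0.98 for Thrsp (adjusted p = 0.13) and -0.65 for Slc25a1 (adjusted p = 0.186). Without the liver-marker libraries WT 2 and WT 3, these differences were 1.40, 1.53 and -0.35. WT 1 was then alone in its group and was assumed to vary like the others. It was the lowest of all libraries for Acaca and Thrsp, and the lowest WT library for Slc25a1.

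Across libraries the genes of the set largely moved together, and more so within groups. Pearson's r of log2 CPM over 9 libraries had a median of 0.38 over the 45 pairs, from -0.49 to 0.96, with 36 pairs positive. After each group's mean was taken away, the median was 0.58, with 40 pairs positive. With group means kept, it was 0.35 without the libraries over 1% skeletal muscle markers, with 33 pairs positive. On log2(TPM + 0.5) over all libraries it was 0.30, with 34 pairs positive. These values are descriptions: the libraries share scaling and tissue makeup, and genes are not independent. Acly and Fasn gave 0.96 over all libraries and 0.95 within groups, Fasn and Acss2 0.80 and 0.92, and Acaca and Thrsp 0.93 and 0.78.

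Slc25a1 stood apart from Fasn, Thrsp and Acaca only in the values over all libraries. Its r over all libraries was 0.73 with Me1 and 0.73 with Acss2, and within groups it was -0.28 with Acacb and -0.07 with Mlxipl. Between Slc25a1 and Fasn r was 0.21 over all libraries and 0.80 within groups, with Thrsp -0.41 and 0.68, and with Acaca -0.42 and 0.50. Within a group, libraries high in Fasn were thus also high in Slc25a1, while its group means differed from WT in the opposite direction to those of Acaca and Thrsp. Acacb and Mlxipl followed the others less closely within groups. Acacb had r of 0.16 to Fasn, -0.01 to Thrsp and 0.51 to Acaca, Mlxipl had 0.23 to Fasn, 0.19 to Thrsp and 0.58 to Srebf1, and the 2 had 0.71 to each other.

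**Figure D3:**
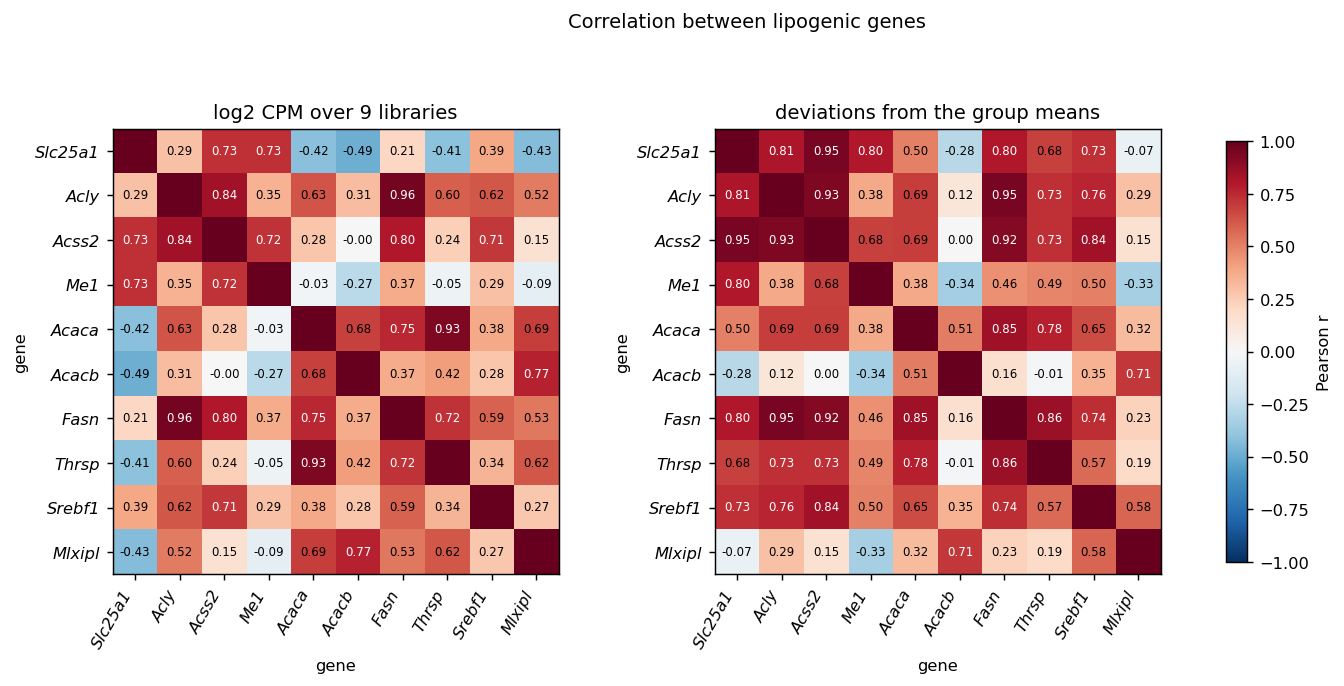
Pearson r between each pair of lipogenic genes (both axes) over the 9 libraries, left, and after subtraction of group means, right; color and printed value give r. The Slc25a1 row is mixed in sign on the left and mostly positive on the right, while Acacb and Mlxipl have values from -0.34 to 0.71 there.

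In some libraries most genes of the set deviated from their group means in the same direction. How much single libraries added to the correlations was not tested. In WT 1 all 10 genes lay below their group mean, with a median deviation of -0.31 on the log2 scale, and in Homo KO 1 this held for 9 genes, with a median of -0.42. Homo KO 3 had all 10 above, with a median of 0.27, and Hete KO 3 had 9 below, with a median of -0.25. Homo KO 1 was the lowest of all libraries for Acly, Fasn, Me1 and Acss2, and WT 1 for Acaca, Mlxipl, Srebf1 and Thrsp. Hete KO 1 was the highest for Acly, Fasn, Thrsp and Acss2. Such counts and correlations are not given here over all tested genes, so a shift of whole libraries cannot be told from one of the set.

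Outside the set, the 5 genes most like its mean standardized pattern over the 9 libraries, of 9251 compared, were Mtg1 (r = 0.965), Dnajc4 (0.949), Mdh2 (0.939), Myh14 (0.939) and Cib2 (0.931). Mdh2, the mitochondrial malate dehydrogenase, was at 153.3, 176.0 and 178.2 normalized CPM in WT, at 190.3, 196.1 and 151.4 in Hete KO, and at 143.9, 172.7 and 173.5 in Homo KO. Its low libraries, Homo KO 1, Hete KO 3 and WT 1, were those where 9 or all 10 lipogenic genes lay below their group mean. Mdh2 was picked for its likeness to the set, so this match follows from the choice.

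Since Fasn varied within groups together with most of the set, counts per 100 counts of Fasn in the same library were computed after the levels had been seen, and are given with no test. Acaca was at 20.2, 14.9 and 16.7 in WT, at 20.4, 33.1 and 29.7 in Hete KO and at 28.6, 26.2 and 23.4 in Homo KO. All 6 knockout libraries lay above WT, Hete KO 1 by a narrow margin. Thrsp was at 6.40, 4.80 and 6.85 in WT, at 8.41, 9.08 and 11.4 in Hete KO and at 12.1, 8.63 and 9.29 in Homo KO, again with all 6 above WT. Of all tested genes, 0.278% lay above WT in all 6 knockout libraries on this scale.

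Acss2 was at 3.11, 2.84 and 3.12 per 100 Fasn counts in WT, at 2.38, 2.10 and 1.70 in Hete KO and at 2.83, 2.43 and 2.11 in Homo KO. It lay below WT in all 6 knockout libraries, Homo KO 1 only just, as did 0.996% of tested genes. Slc25a1 was at 6.41, 4.49 and 5.30 in WT, at 2.78, 2.43 and 2.45 in Hete KO and at 5.61, 3.58 and 2.94 in Homo KO, so that Hete KO was separate and Homo KO 1 was not. All ratios in a library share 1 denominator. Fasn lay above all WT libraries in Hete KO 1 and 2, at 4872 and 4107 normalized CPM, and inside the WT range in Hete KO 3, at 3522. In Hete KO against WT, 4 of 9 genes were lower on this scale, as were 29.6% of all tested genes, and 2 were higher, as were 0.468%. Because Fasn was chosen for varying with the set, none of these shares can show that genes of the set are unusual.

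**Figure D4:**
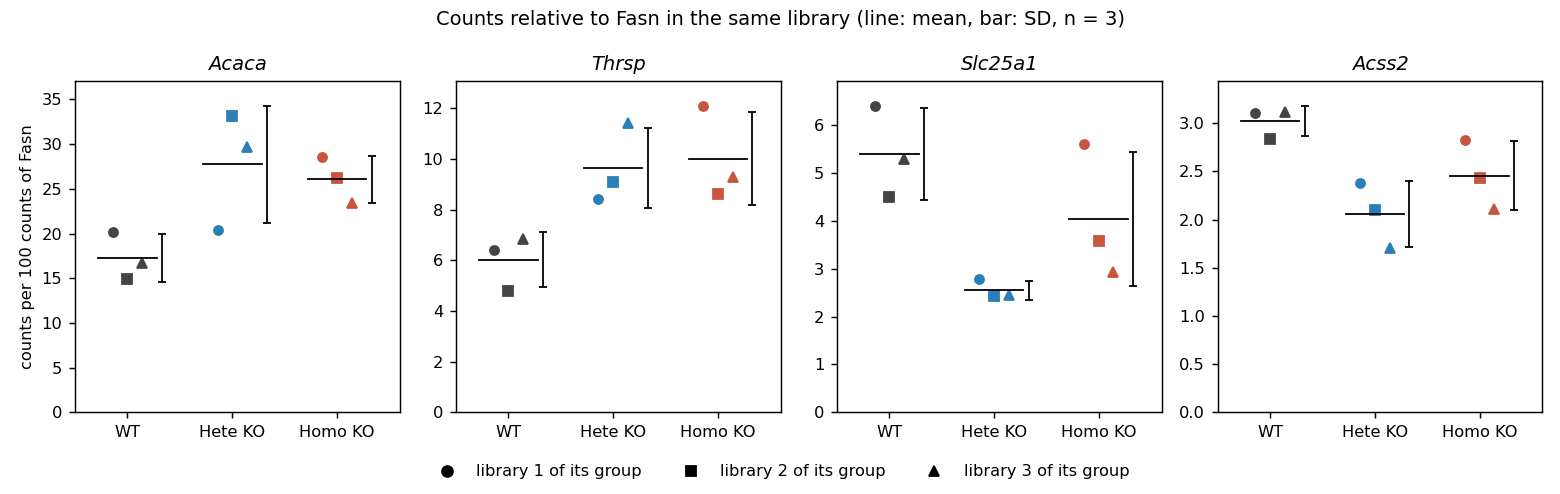
Counts per 100 counts of Fasn in the same library (vertical axes, linear from 0) for 4 lipogenic genes by group; symbols are libraries, lines are means and bars are SDs of 3 libraries. Thrsp in the 6 knockout libraries (8.41 to 12.1) sits above WT (4.80 to 6.85), and Acss2 (1.70 to 2.83) below WT (2.84 to 3.12).

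Set against the summed counts of the 10 adipocyte markers, Thrsp was at 1.01, 1.31 and 1.40 per 100 marker counts in WT, at 2.92, 3.05 and 2.81 in Hete KO, and at 1.50, 2.08 and 2.44 in Homo KO. All 6 knockout libraries were above WT, as for 5.36% of tested genes. Slc25a1 was at 1.02, 1.22 and 1.08 in WT, at 0.965, 0.817 and 0.605 in Hete KO, and at 0.693, 0.861 and 0.772 in Homo KO. All 6 were below WT, as for 3.3% of tested genes. For the other 8 genes at least 1 of the 6 overlapped WT on this scale, Acaca among them, with Homo KO 1 at 3.53 against 3.20 to 4.06 in WT.

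The files give each transcript, so the make-up of the genes was compared too. Shares of a gene's TPM were tested for 23 transcripts of 7 genes with at least 10% of it, both knockout groups against WT by an exact 2-sided permutation test of 84 arrangements, and 0 had a Benjamini-Hochberg adjusted p under 0.05 (smallest 0.547). An exact permutation test of 3 against 3 libraries cannot go below p = 0.1. The transcript Acacb-202, which starts at base 114146535 of chromosome 5, upstream of Acacb-201 at 114165518, was among the shares with the smallest adjusted p. Its share of the gene was 23.1, 22.5 and 33.5% in WT, then 24.5, 48.8 and 46.1% in Hete KO, and lastly 59.0, 51.1 and 34.4% in Homo KO (exact permutation p = 0.0476, adjusted p = 0.547). Srebf1-202, of 516 bases, had the smallest unadjusted value, with a share of 20.4 ± 2.19% in WT and 15.4 ± 2.53% over the 6 knockout libraries (SD; exact permutation p = 0.0238, adjusted p = 0.547).

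Acaca has an upstream start as well, and it was chosen for description after its values were seen. The transcript Acaca-201, from base 84195438 of chromosome 11, held 67.5 to 78.2% of the gene's TPM in all libraries. Acaca-202, from base 84173122, was at 4.38, 5.80 and 3.65 TPM in WT, at 11.3, 30.7 and 18.3 in Hete KO, and at 3.52, 5.88 and 7.95 in Homo KO. All Hete KO libraries were above the others, and Hete KO 2, with the most muscle markers, was the highest. As a share of the gene, 5.87, 12.8 and 9.21% in Hete KO overlapped the 3.37 to 6.01% of WT.

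Srebf1 makes SREBP-1a and SREBP-1c from separate first exons. Srebf1-201, with the first exon of SREBP-1a, was at 26.4, 30.3 and 38.9 TPM in WT, at 34.8, 29.6 and 20.9 in Hete KO, and at 30.2, 21.8 and 34.2 in Homo KO. Srebf1-207, with that of SREBP-1c and an incomplete end in the annotation, was at 11.8, 7.05 and 14.6 in WT, at 16.9, 19.8 and 13.3 in Hete KO, and at 11.9, 6.68 and 15.6 in Homo KO. Both overlapped between groups, and estimates for transcripts that share most exons are less certain than those for whole genes. Of Mlxipl, the annotated transcript from the upstream exon that ChREBP-beta uses, Mlxipl-210, had between 0.0 and 9.99 estimated counts per library, too few to compare.

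For 6 of the 10 genes, Homo KO 2 had the highest share of counts on transcripts without coding annotation. Acly-205, of 601 bases, was at 64.5 TPM there and at most 1.83 in the other libraries, and Me1-204, of 1055 bases, was at 58.5 against at most 9.12. Of the estimated counts of Slc25a1, 56.5% fell on non-coding transcripts in Homo KO 2 and 25.8 to 39.2% elsewhere. For Acly it was 15.9% against 3.19 to 8.13%, and for Fasn 3.13% against 0.726 to 1.64%. Me1, Srebf1 and Acss2 were the others. Acaca, Acacb, Mlxipl and Thrsp did not follow: Homo KO 2 had 3.78% for Acaca against up to 6.67% elsewhere, 2.39% for Acacb against up to 7.35%, 30.4% for Mlxipl against up to 56.3%, and for Thrsp the lowest value of all libraries, 2.48%. Over all protein-coding genes Homo KO 2 was the highest, at 12.9% against 10.1 to 11.9%.

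**Figure D5:**
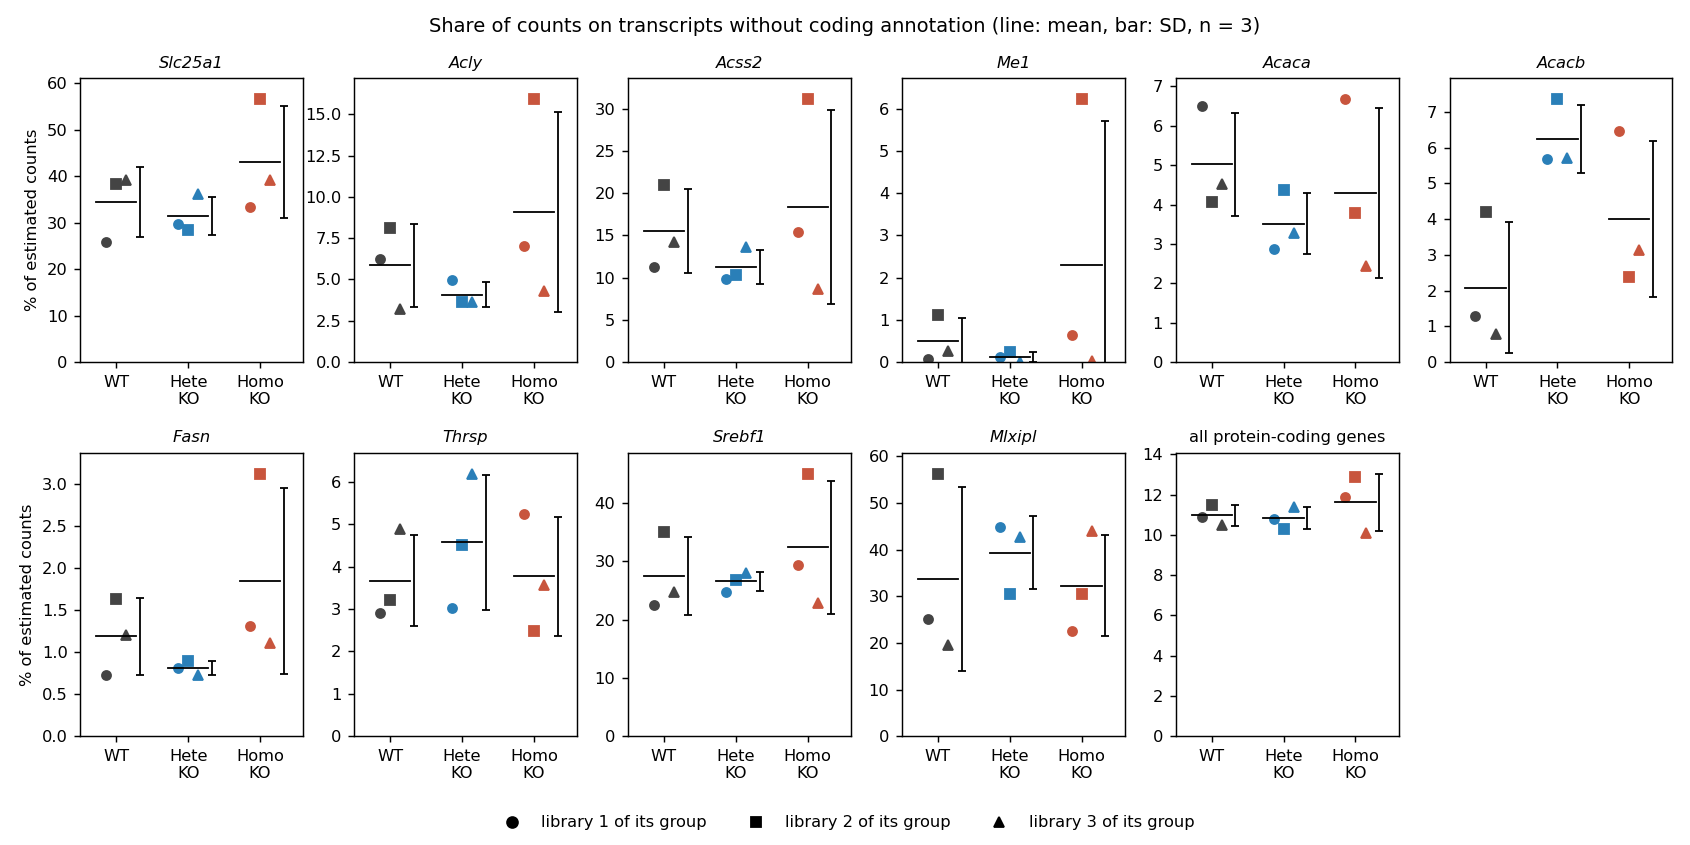
Percent of a gene's estimated counts on transcripts without coding annotation (vertical axes, linear from 0, where the lower SD bars of Me1 in WT and Homo KO are cut off) for the 10 lipogenic genes and over all protein-coding genes; symbols are libraries, lines are means and bars are SDs of 3 libraries. Homo KO 2 is the highest library for Slc25a1, Acly, Acss2, Me1, Fasn, Srebf1 and all protein-coding genes, but not for Acaca, Acacb, Thrsp and Mlxipl.

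When only protein-coding transcripts were summed, an alternative chosen after this was seen, no gene of the set passed in any comparison either. Thrsp and Acaca then differed by 1.13 and 1.18 in Hete KO against WT (adjusted p = 0.0682 and 0.0742 with edgeR), and Slc25a1 by -0.47 (adjusted p = 0.17).

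Lists of neighbouring genes were tested in the same fits, and 1 gene on them passed in 1 comparison. Sp1, a GC-box-binding transcription factor that works with SREBP, was at 91.4, 80.3 and 86.9 normalized CPM in WT, at 107.5, 126.1 and 115.5 in Hete KO, and at 112.7, 122.6 and 121.6 in Homo KO. It rose with both knockout groups set against WT, by 0.45 (SE 0.09, edgeR adjusted p = 0.0411), with all 6 knockout libraries above WT; 2.34% of all tested genes passed there and 6.37% lay above WT in all 6. The call was lost without WT 2 (adjusted p = 0.153), WT 3 (0.0839), Hete KO 2 (0.0583), Hete KO 3 (0.0908), Homo KO 1 (0.061), Homo KO 2 (0.115) or Homo KO 3 (0.106), with the log2 fold change between 0.41 and 0.51 over all 9 omissions. It was also lost with a length offset (0.191), limma (0.208 and 0.213 at pseudocounts 0.5 and 0.1), the replicate block (0.0543), the muscle limits (0.0526 and 0.239) and without the liver-marker libraries (0.463). The other 11 of 12 partner transcription factors did not pass in any comparison.

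Of the enzymes that act on the product of Fasn, 10 desaturases and elongases were tested and 0 passed in any comparison. Scd1, the stearoyl-CoA desaturase, was at 28570, 33150 and 51180 normalized CPM in WT, at 70110, 74990 and 76590 in Hete KO, and at 39480, 77470 and 85580 in Homo KO. Like Thrsp it lay above WT in all Hete KO libraries and had Homo KO 1 inside the WT range, with log2 fold changes of 0.97 (SE 0.30, edgeR adjusted p = 0.112) and 0.84 (SE 0.30, adjusted p = 0.238). Elovl6, which elongates palmitate, had 0.50 (adjusted p = 0.438) and 0.13 (adjusted p = 0.883). Fads1, a desaturase of polyunsaturated fatty acids, had 0.83 (adjusted p = 0.125) and 0.41 (adjusted p = 0.47). Fads2, another gene of this list, went the other way, with -1.02 (edgeR adjusted p = 0.161) and -1.06 (adjusted p = 0.238). Of the 10 genes, 5 had a positive and 5 a negative log2 fold change in each knockout group against WT.

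For NADPH supply, 0 of 7 genes passed. The smallest p belonged to Pgd of the pentose phosphate pathway, with -0.54 in Hete KO (edgeR adjusted p = 0.159) and -0.38 in Homo KO (adjusted p = 0.367). Tkt of the same pathway went the other way, with 0.45 (adjusted p = 0.209) and 0.31 (adjusted p = 0.444). The median log2 fold change of the 7 genes in Hete KO was -0.01. Of 9 genes that supply acetyl-CoA and citrate, 8 were tested and 0 passed. Pdha1, a subunit of pyruvate dehydrogenase, had 0.49 in Hete KO (adjusted p = 0.107) and was highest in Hete KO 2. Mpc1, a pyruvate carrier subunit, had 0.63 in Hete KO (adjusted p = 0.151). Of the 8 tested genes, 5 were positive and 3 negative in Hete KO against WT. Of 7 genes for glucose and fructose entry, 5 were tested and 0 passed. Slc2a4, the insulin-responsive glucose transporter, was at 78.5 to 114.1 normalized CPM in WT and at 131.3, 200.2 and 137.9 in Hete KO (0.70, adjusted p = 0.133), highest in Hete KO 2, and muscle expresses it too. Pkm, a pyruvate kinase, had 0.05 in Hete KO (adjusted p = 0.964) and -0.81 in Homo KO (adjusted p = 0.37), and was also highest in Hete KO 2.

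Of the 9 genes that control acetyl-CoA carboxylase, 0 passed. Prkaa1, a catalytic subunit of AMP-activated protein kinase, which inhibits the enzyme by phosphorylation, had 0.68 in Hete KO (edgeR adjusted p = 0.0783) and 0.61 in Homo KO (adjusted p = 0.188). Prkag2, a regulatory subunit, had 0.50 (adjusted p = 0.0767) and 0.41 (adjusted p = 0.204). Both lay above WT in all 6 knockout libraries, as did 6.37% of all tested genes. Prkag1, another subunit, went the other way, with -0.35 in Hete KO (edgeR adjusted p = 0.24) and -0.47 in Homo KO (adjusted p = 0.225). With both knockout groups set against WT, 4 of the 9 genes were positive and 5 negative. Of the 6 genes of SREBP processing 0 passed, with Mbtps2, the site-2 protease, at 0.36 in Hete KO (adjusted p = 0.127). Insig1 went the other way, with -0.47 in Hete KO (edgeR adjusted p = 0.293) and -0.41 in Homo KO (adjusted p = 0.425). In Hete KO against WT, 2 of these 6 genes were positive and 4 negative. Of 8 genes of the separate mitochondrial fatty acid synthesis, 7 were annotated and tested, and 0 passed. Cbr4 had 0.36 in Hete KO (adjusted p = 0.143) and Mecr 0.34 (adjusted p = 0.146).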

How the data were processed

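The authors deposited 1 table per library with 113193 transcripts. Their columns, per the file headers, hold estimated counts (expected counts, not normalized), TPM, length and effective length. Per the submitters' processing notes the genome build was mm10; no source used here gives the quantifier, its annotation or its strand setting.

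Transcripts were assigned to genes with GENCODE M21 by identifier (111362 matched, 98.38%; the 1831 unmatched held 0.581 to 1.06% of the counts) and summed. Summed estimated counts were rounded, filtered with filterByExpr and tested with edgeR 4.0.16 (R 4.3.3; TMM, quasi-likelihood F-test, 1 fit over 9 libraries, 6 residual degrees of freedom, Benjamini-Hochberg over 17968 genes, threshold 0.05), after a test on simulated data. SEs are the log2 fold change divided by the square root of F. Alternatives used DESeq2 1.42.0, limma 3.58.1 on log2(TPM + 0.5) and log2(TPM + 0.1), and those named in the closing section. Named genes are the 10 genes of the set, any list gene past the threshold and otherwise up to 2 per list with the smallest p in either knockout group against WT, Scd1, Elovl6 and the 5 most similar genes of at least 10 CPM. Fads2 and Prkag1 were added after their values were seen, because they went the other way from genes named beside them. The genes and lists were chosen with earlier results of these data known. Promoters are from RefSeq.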

Additional observations from a re-analysis of the deposited data

How the results depend on the processing

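In the main edgeR fit no lipogenic gene passed, but some did in other edgeR settings, and the number of called genes moved widely with the method. Estimated counts of single transcripts and exons shared with neighbours limit the values of Acss2, Srebf1, Mlxipl, Me1 and Slc25a1. The cause of the changes below was not tested, except that settings without libraries hold fewer samples.

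In Hete KO against WT, the 10 genes gave 3 calls with DESeq2 and 1 without a filter (Thrsp), against 0. The joint comparison of both knockout groups gave 3 with DESeq2 and 1 without a filter (Thrsp), against 0. Over all genes, the calls in Homo KO against WT were 0, and 652 with DESeq2, 1 without a filter, 7 with only the groups compared, 243 without libraries over 1% muscle markers, 41 without those over 0.5% and 2 without the liver-marker libraries. In Hete KO against WT they were 75, and 1674 with DESeq2, 258 without a filter, 1 with a length offset, 0 with only the groups compared, 0 and 0 with limma at either pseudocount, 115 and 11 without libraries over 1% and 0.5% muscle markers, 1 without the liver-marker libraries and 21 from protein-coding transcripts. In Homo KO against Hete KO they were 0, and 8 with DESeq2. For both knockout groups they were 421, and 1838 with DESeq2, 759 without a filter, 4 with a length offset, 12 and 6 with limma (pseudocounts 0.5 and 0.1), 2 without the liver-marker libraries, 102 without libraries over 0.5% muscle markers (WT 1, WT 2 and Hete KO 2) and 224 from protein-coding transcripts. The 0.5% limit and the protein-coding sums were chosen after seeing the data. For both knockout groups, fitting only the groups compared uses the same libraries and gave no separate value.

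Leaving out 1 library gave 0 to 2 calls among the 10 genes in Hete KO against WT, 0 to 1 with both knockout groups, and 0 to 0 in the other comparisons. Over all genes it gave 0 to 153 in Homo KO, 0 to 958 in Hete KO, 0 to 0 between knockout groups and 2 to 1095 with both.

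The replicate numbers are shared by the groups in the labels. Deviations of same-numbered libraries correlated between -0.0722 and 0.458, and 1 of 9 libraries correlated best with its own number in both other groups. With 3 libraries per group these values cannot decide whether same-numbered libraries share a litter or batch. The labels do not say so. With a replicate block, Acaca and Thrsp passed in Hete KO against WT (edgeR adjusted p = 0.0471 for both) and with both knockout groups (0.0429 and 0.0401), 2 calls each, and 248 genes were called in Hete KO against WT.

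The values below changed sign; none of them had passed as reported. In Homo KO against WT, Acly was 0.16 with a length offset, 0.14 and 0.14 with limma and 0.40 without the liver-marker libraries. Mlxipl was 0.07, 0.09 and 0.09 and 0.15 there, 0.00 with the replicate block and 0.07 from protein-coding transcripts. Without libraries over 1% and 0.5% muscle markers, Fasn was -0.18 and -0.15 and Srebf1 -0.10 and -0.12. Acss2 was 0.15 without the liver-marker libraries. In Hete KO against WT, Srebf1 was -0.02 with a length offset and -0.31 and -0.31 at the muscle limits, and Acss2 was 0.40 without the liver-marker libraries and 0.03 from protein-coding transcripts. In Homo KO against Hete KO, protein-coding sums gave -0.20 for Slc25a1 and -0.06 for Srebf1. For both groups jointly, Acly was -0.05 at the 1% limit, Srebf1 -0.20 and -0.21 at both limits, and Acss2 0.27 without the liver-marker libraries.

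Leaving out 1 library, ranges that crossed 0 in Homo KO against WT were -0.29 to 0.18 for Acly, -0.21 to 0.34 for Fasn, -0.07 to 0.07 for Mlxipl and -0.09 to 0.20 for Srebf1. In Hete KO they were -0.25 to 0.03 for Me1, -0.14 to 0.20 for Srebf1 and -0.31 to 0.16 for Acss2. Between knockout groups they were -0.05 to 0.28 for Slc25a1 and -0.11 to 0.20 for Srebf1, and with both groups -0.04 to 0.33 for Acly and -0.11 to 0.17 for Srebf1. The median correlation between the genes was 0.58 after group means were removed, against 0.38.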
